A study of Mus musculus with 2 samples.

Results

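Interferon-stimulated genes encode the proteins with which a cell resists viruses. The 33 mouse genes described here form the antiviral core of that response: the Ifit and Mx proteins, the oligoadenylate synthetases, the cytoplasmic sensors of foreign nucleic acid, the Isg15 modifier with its enzymes, proteins that block virus entry or release, and nucleotide-altering enzymes. The list was matched to the arrays through the RefSeq accession that each non-control probe carries, a step that uses no measured value. The genes on it, however, were chosen with earlier results of these data known. A probe could be matched to 30 of the 33 genes, 46 probes in all, out of 18206 named genes with a probe. Mx1, Mx2 and Dtx3l had no probe whose accession matched. The Mx proteins are GTPases that trap viral particles, and the RefSeq table lists both mouse genes as transcribed pseudogenes.

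Gene expression was measured in mouse epidermis in the steady state on 2 one-colour Agilent arrays, 1 for each genotype. Both genotypes carry the Nfkbiz flox/flox alleles, in which Nfkbiz, the gene of the nuclear protein IκBζ, can be deleted. The control array held RNA of Nfkbiz flox/flox epidermis, and the knockout array RNA of Nfkbiz flox/flox; K5-cre epidermis. The K5-cre transgene expresses Cre from the keratin 5 promoter, which is active in basal keratinocytes, so epidermal cells of other lineages, such as Langerhans cells, T cells and melanocytes, keep the gene. A control genotype with K5-cre alone was not analysed here. The epidermis had been peeled from the dermis after treatment with ammonium thiocyanate. The ages, and the number of mice per array, are not stated in the sources used here.

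Type I and type III interferons bind receptors at the cell surface and activate the kinases Jak1 and Tyk2, which phosphorylate STAT proteins. With Irf9 these form the factor ISGF3, which enters the nucleus and binds the interferon-stimulated response element, ISRE, in the promoters of antiviral genes. Interferon-gamma signalling acts through the gamma-activated site, GAS, and induces Irf1, which can bind the ISRE as well. Keratinocytes respond to all of these interferons, and several antiviral genes are also expressed at a low level in skin without infection.

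The values are processed signals in arbitrary intensity units, and where a pair of signals is given the control comes first. A log2 difference is knockout minus control after each array was scaled to the 75th percentile of its own signals, 194 in control and 226 in knockout epidermis, and equal raw signals correspond to a slightly lower scaled level on the knockout array. The error after ± is the standard error that the scanner software's error model gives for the spots read. It reflects technical error only, and the variation between mice is not part of it. With 1 array per genotype there is no replicate check, no difference was tested, and genes were set apart by size alone, at 2-fold. A gene was taken as measured when its brightest probe was well above background and not saturated. Signals are compared between arrays for one probe and never between probes. Sums over marker lists are of signals before scaling, follow the brightest probes, and are given only as a description.

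Each array had 56.3% of 41134 probes well above background and 0 saturated probes. The 6 keratinocyte markers (Krt5, Krt14, Krt1, Krt10, Trp63 and Dsp) were all measured, so the defining markers of the labelled tissue were present. Their summed signals before scaling were 252100 in control and 262200 in knockout epidermis. Their scaled differences ran from -0.31 to -0.07, and the median of -0.16 was 0.19 under median scaling. Nfkbiz itself had a signal of 3100 in control and 1760 in knockout epidermis, a difference of -1.04 ± 0.20 (2.05-fold lower, and -0.69 when the arrays are scaled to their medians). Its only named probe checks the labels no further than this, since the deleted exons and the position of the probe are not given here.

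RefSeq windows of 300 bases on GRCm38.p6, from 250 bases before to 50 bases after the annotated start, matched 23 of the 33 genes by symbol. They were searched on both strands for an ISRE core, which is GAAA, any 2 bases and GAAA, for the GAS letters TTCNNNGAA and for the NF-κB site. An ISRE core was found in 11 of the 23 genes (47.8%), against 3.99% of all 27025 genes in the same table. When a C had to follow the core, 9 of 23 genes and 0.944% of all genes held it. GAS letters were found in 7 of 23 genes (30.4%, against 9.55% of all genes) and the NF-κB site in 6 of 23 (26.1%, against 9.55%). A match describes letters in this window and is not evidence of a binding site.

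The 6 windows below show the range among these genes, 5′ to 3′ on the gene's own strand, with ISRE cores in capitals. Isg15 (chr4:156200769-156201068, minus strand), Oas1a (chr5:120907476-120907775, minus strand) and Eif2ak2 (chr17:78882523-78882822, minus strand) hold a core and had higher signals on the knockout array. Ifit1 (chr19:34640639-34640938, plus strand) and Rsad2 (chr12:26456403-26456702, minus strand) also hold a core, and the first was well above background on the knockout array alone while the second had a lower signal there. Xaf1 (chr11:72301379-72301678, plus strand) had a higher signal and holds no core of this spacing.
Isg15: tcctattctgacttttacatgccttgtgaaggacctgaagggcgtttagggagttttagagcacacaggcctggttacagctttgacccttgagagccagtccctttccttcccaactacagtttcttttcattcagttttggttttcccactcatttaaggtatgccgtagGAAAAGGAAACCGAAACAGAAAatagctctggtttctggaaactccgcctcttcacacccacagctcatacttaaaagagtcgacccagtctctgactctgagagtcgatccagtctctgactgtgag
Oas1a: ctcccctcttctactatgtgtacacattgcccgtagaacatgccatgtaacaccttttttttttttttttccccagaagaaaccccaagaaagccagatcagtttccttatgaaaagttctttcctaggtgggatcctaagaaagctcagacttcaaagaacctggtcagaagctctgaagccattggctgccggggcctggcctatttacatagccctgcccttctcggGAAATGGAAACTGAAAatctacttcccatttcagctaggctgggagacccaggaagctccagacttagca
Eif2ak2: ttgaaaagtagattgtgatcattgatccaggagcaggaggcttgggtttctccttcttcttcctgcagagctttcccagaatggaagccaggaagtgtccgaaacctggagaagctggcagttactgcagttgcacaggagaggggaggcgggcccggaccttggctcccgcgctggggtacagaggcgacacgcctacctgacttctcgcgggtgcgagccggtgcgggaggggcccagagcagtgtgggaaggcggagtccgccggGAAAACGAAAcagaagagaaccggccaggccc
Ifit1: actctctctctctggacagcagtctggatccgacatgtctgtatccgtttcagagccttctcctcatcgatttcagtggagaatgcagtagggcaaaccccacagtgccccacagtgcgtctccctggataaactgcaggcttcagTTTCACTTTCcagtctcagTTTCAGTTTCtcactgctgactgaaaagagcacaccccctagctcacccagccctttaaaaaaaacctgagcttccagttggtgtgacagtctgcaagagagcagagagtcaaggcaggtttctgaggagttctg
Rsad2: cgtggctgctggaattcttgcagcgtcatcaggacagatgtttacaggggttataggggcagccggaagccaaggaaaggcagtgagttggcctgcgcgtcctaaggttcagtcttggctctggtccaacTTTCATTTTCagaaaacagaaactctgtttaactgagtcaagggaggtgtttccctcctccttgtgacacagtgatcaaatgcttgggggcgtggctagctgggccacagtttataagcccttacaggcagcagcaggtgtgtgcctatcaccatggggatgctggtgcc
Xaf1: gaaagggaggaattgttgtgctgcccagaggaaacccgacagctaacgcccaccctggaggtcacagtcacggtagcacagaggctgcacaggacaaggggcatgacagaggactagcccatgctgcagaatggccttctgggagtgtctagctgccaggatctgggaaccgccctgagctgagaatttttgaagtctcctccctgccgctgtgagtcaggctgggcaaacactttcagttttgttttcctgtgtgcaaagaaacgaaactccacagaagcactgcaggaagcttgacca

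In Isg15, 3 overlapping cores start 78, 72 and 66 bases upstream of the start. In Oas1a, 2 overlapping cores start 20 and 14 bases upstream, with a GAS match starting 98 bases upstream. Eif2ak2 has its core inside the transcribed part, starting 19 bases after the start, and a GAS match 178 bases upstream. The cores of Ifit1 lie on the opposite strand 104 and 85 bases upstream, and that of Rsad2 on the opposite strand 120 bases upstream. The position of the letters thus differs from gene to gene, from well upstream to just after the start.

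The remaining holders were Bst2, Ddx58, Ifih1, Ifit3, Ifitm3 and Oas3. In Bst2 the cores GAAAATGAAA and GAAACTGAAA overlap each other 130 and 124 bases upstream, and the first of them overlaps a GAS match, which in turn overlaps an NF-κB site. In Oas3 the core GAAAACGAAA starts 75 bases upstream, the same letters as in Eif2ak2. Ifitm3 holds GAAAAGGAAA and GAAACCGAAA after its start, at 3 and 20 bases, and the second overlaps a GAS match. Ifih1 holds GAAACAGAAA 33 bases after its start. Both patterns of Ifitm3, and that of Ifih1, recur within the Isg15 run.

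**Figure D1:**
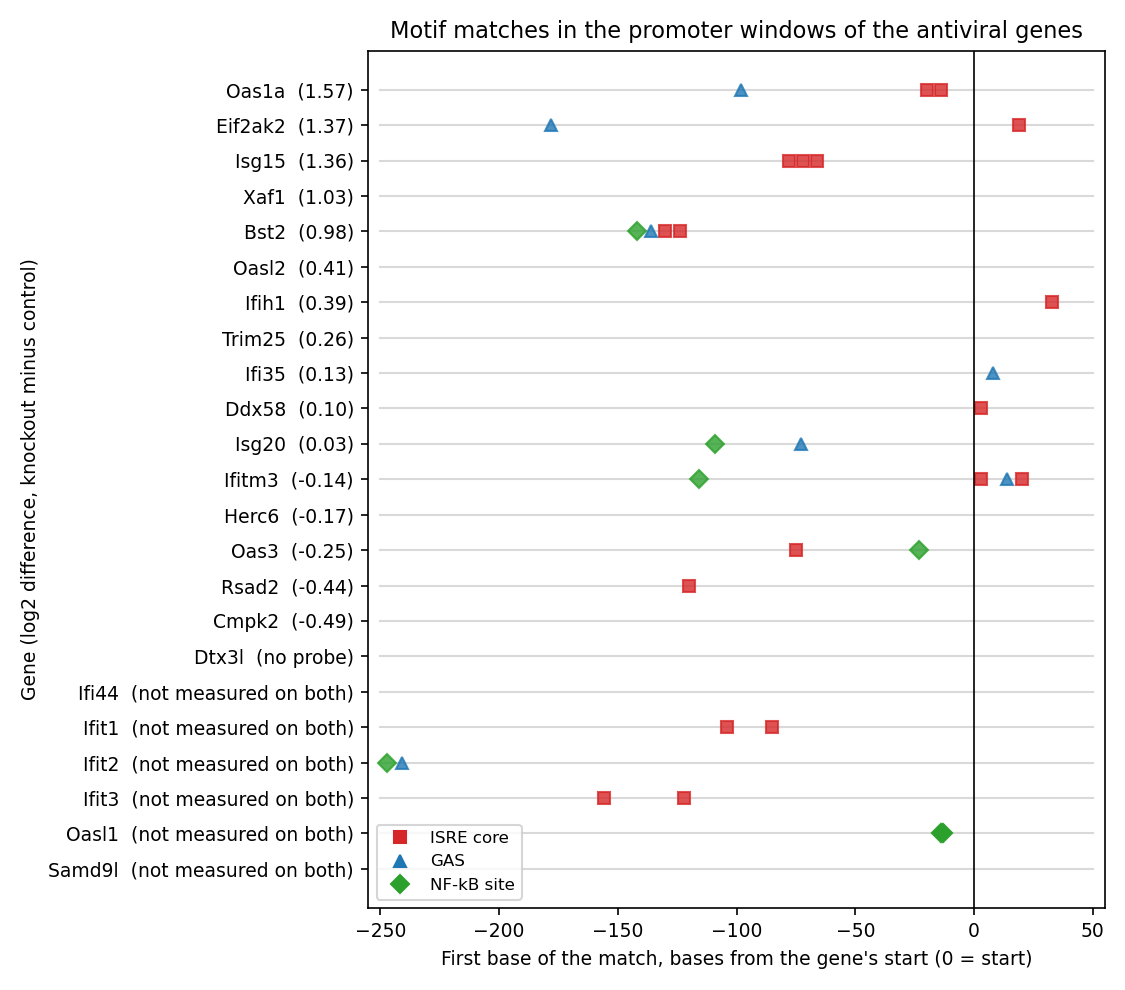
Positions of motif matches in the promoter windows of the 23 antiviral genes found in the RefSeq table, with genes ordered by their log2 difference (in brackets) and distance from the annotated start on the horizontal axis, in bases. ISRE cores (red squares) occur both among the genes that were higher on the knockout array, such as Oas1a and Isg15, and among those that were not, such as Oas3 and Rsad2.

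Of the 33 genes, 23 were measured on both arrays, 3 on the knockout array alone (Ifit1, Oasl1 and Zbp1) and 4 on neither (Ifit2, Ifit3, Ifi44 and Samd9l). Among the 23, 7 were higher by 2-fold or more in knockout epidermis: Rtp4, Oas1a, Parp14, Eif2ak2, Isg15, Usp18 and Xaf1. Of all 12397 genes measured on both arrays, 3.03% were higher by that much. None of the 23 was at least 2-fold lower, against 4.39% of all genes. The median difference of the 23 was 0.41, against -0.04 over all genes, and 18 lay above 0 and 5 below. These comparisons are descriptions only, since the list was chosen with earlier results of these data known. In a whole tissue, more cells of a type and more RNA per cell cannot be told apart.

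The technical error of these differences ran from 0.20 to 0.44. Of the 23 genes, 10 lay more than 2 standard errors above 0, against 16.2% of all genes, and 0 lay more than 2 standard errors below it, against 17.5%. A further 6 lay within 1 standard error of 0. Most of these genes were dim: 14 had a geometric mean signal under 200, of which 5 were at least 2-fold higher, against 4.07% of the 4967 genes in that range. The count also depends on the signal used. With normexp background correction of the median spot signals and an added offset of 50, which together replace the processed signal, 1 of the 23 (Parp14) stayed at least 2-fold higher, against 1.48% of all genes, and the median was 0.27 against -0.03.

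**Figure D2:**
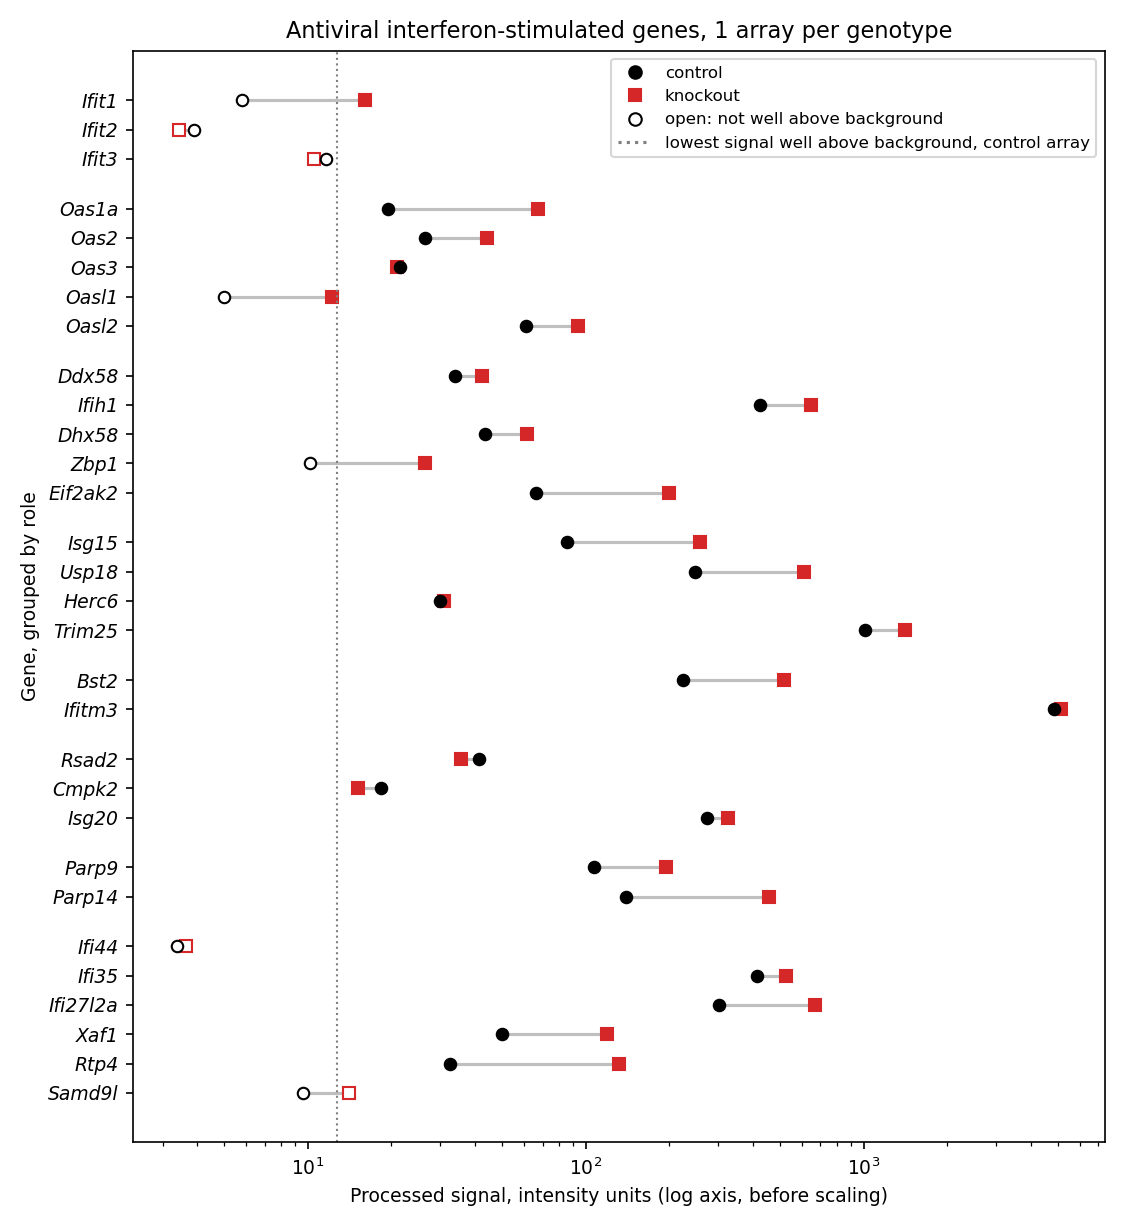
Processed signal of 30 antiviral genes on the control array (black circles) and the knockout array (red squares), in intensity units on a log axis before scaling, grouped by role, with open symbols for probes not well above background and a dotted line at the control array's lowest signal well above background, 12.7. The Ifit genes, Ifi44 and Samd9l lie at the floor, while Rtp4, Oas1a, Parp14, Eif2ak2 and Isg15 show the widest gaps among genes measured on both arrays.

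The cytoplasmic sensors detect viral RNA or unusual nucleic acid. Eif2ak2, the kinase PKR that halts translation when it binds double-stranded RNA, had a signal of 66.4 in control and 200 in knockout epidermis, a difference of 1.37 ± 0.21 (2.59-fold). Ifih1, the sensor of long double-stranded RNA, had 423 and 645 (0.39 ± 0.20), and its other probe was not well above background. Dhx58, a regulator of these sensors, had 43.3 and 61.4 (0.28 ± 0.25). Eif2ak2 thus stood apart from the RNA helicases. Ddx58, the sensor RIG-I, had 33.9 and 42.4 on its brightest probe (0.10 ± 0.29) and 14.6 and 21.9 on a second one (0.36 ± 0.38). Its sign turned under normexp, to -0.12. Zbp1, which binds left-handed nucleic acid and can trigger cell death, had 10.2, not well above background, and 26.5, which makes it at least 1.79-fold higher. An at-least value divides the bright level by the lowest level well above background on the other array. Where the dim spot was brighter than that, as for Ifnk and Ifng below, the plain ratio of the scaled levels is given.

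The oligoadenylate synthetases make a second messenger when they bind double-stranded RNA. Oas1a had a signal of 19.5 in control and 67.4 in knockout epidermis (1.57 ± 0.31, 2.97-fold). Oas2 had 26.4 and 44.2 (0.52 ± 0.28), with its other probe not well above background. Oasl2, a relative with a ubiquitin-like tail, had 60.9 and 94.1 (0.41 ± 0.23). The values thus spread widely within this family. Oas3 had 21.4 and 21.0 (-0.25 ± 0.38), and its probe lies near a spot marked as non-uniform. The difference of Oas3 was above 0 under cyclic loess (0.04), quantile normalization (0.09) and median scaling (0.10), and its other probe passed background on the knockout array alone. Oasl1, which restrains translation of Irf7, had 4.98, not well above background, and 12.2, for which no fold can be given.

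The mouse has many close copies of Oas1a, and 22 of 24 listed relatives of the antiviral genes had a probe. Of the 16 relatives measured on both arrays, 3 passed 2-fold, all higher, and these belong to the Oas1 cluster. Oas1d had 47.5 and 195 (1.82 ± 0.23), Oas1e 95.5 and 285 (1.36 ± 0.21, and 0.99 under normexp) and Oas1c 247 and 645 (1.16 ± 0.21). Oas1f had 9790 and 21500 (0.91 ± 0.20), and the 2 probes of Oas1h went opposite ways, each above background on 1 array. No probe sequence was used here, so cross-hybridisation between these near-identical copies was not tested.

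The Isg15 system attaches a ubiquitin-like protein to newly made proteins. Isg15 had a signal of 85.9 in control and 257 in knockout epidermis (1.36 ± 0.21, 2.57-fold). Usp18, which removes Isg15 and damps signalling at the type I receptor, had 248 and 613 (1.09 ± 0.20, 2.12-fold). The modifier and the enzyme that removes it were thus both higher. Herc6, the main Isg15 ligase of the mouse, had 29.9 and 31.0 (-0.17 ± 0.33, with a range from -0.21 to 0.18 over 5 scalings). Trim25, a ubiquitin ligase that acts on RIG-I, had 1010 and 1410 on its brightest probe (0.26 ± 0.20) and 104 and 143 on the other (0.24 ± 0.21). Of the enzymes that hand Isg15 on, the activating enzyme Uba7 had 83.8 and 135 (0.47 ± 0.22). The conjugating enzyme Ube2l6 had 6.17, not well above background, and 32.2, at least 2.18-fold higher.

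Parp9, Dtx3l and Parp14 lie next to each other on chromosome 16, and Parp9 and Dtx3l form an enzyme complex that modifies proteins with ubiquitin and ADP-ribose. Parp14, an ADP-ribosyltransferase, had a signal of 140 in control and 457 in knockout epidermis (1.49 ± 0.21, 2.80-fold). It was at least 2-fold higher under all 5 scalings compared, the only one of the 23 genes of which this holds. Its other 2 probes, with signals between 8.26 and 13.2, were not well above background. Parp9 had scaled log2 levels of -0.86 in control and -0.21 in knockout epidermis (0.65 ± 0.21). Among the relatives, Parp12 had 53.0 and 113 (0.87 ± 0.23) and Parp10 432 and 878 (0.80 ± 0.20). Other relatives were lower. Zc3hav1 had 3150 and 1970 (-0.90 ± 0.20), with -0.92 and -0.81 on its other probes, and Herc4 had 2950 and 2170 (-0.66 ± 0.20). Of the 16 relatives measured on both arrays, 11 lay above 0 and 5 below.

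Bst2, or tetherin, holds budding virus at the cell surface, and had a signal of 224 in control and 516 in knockout epidermis (0.98 ± 0.21, 1.98-fold). It lies just under the 2-fold line, with Xaf1 just over it. Ifitm3, which blocks fusion of viruses that enter through endosomes, had 4850 and 5120 (-0.14 ± 0.20), and median scaling turned its sign, to 0.21. Its relatives Ifitm2, with 2430 and 2920 (0.04 ± 0.20), and Ifitm1, with 54.1 and 54.9 (-0.20 ± 0.25), also lay close to 0. Ifitm6 had 3510 and 7390 (0.85 ± 0.20). The membrane factors were therefore not alike on these arrays.

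The nucleotide-altering enzymes Rsad2 and Cmpk2, which are neighbours on chromosome 12, were the only genes of the list below 0 under all 5 scalings. Rsad2, or viperin, which turns a nucleotide into a chain terminator for viral polymerases, had a signal of 41.3 in control and 35.5 in knockout epidermis (-0.44 ± 0.24). Cmpk2, the kinase that can supply its substrate, had 18.3 and 15.2 (-0.49 ± 0.44). Both lay within 2 standard errors of 0, and the other probes of both genes were not well above background. Isg20, an exonuclease that degrades RNA, had 274 and 325 on its brightest probe (0.03 ± 0.20), near a spot marked as non-uniform, and 131 and 148 on the other (-0.04 ± 0.21).

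The Ifit1 protein binds viral RNA that lacks the host's cap methylation, and the Ifit genes are among those most strongly induced by interferon. Ifit1 had a signal of 5.77, not well above background, in control and 16.1 in knockout epidermis, at least 1.09-fold higher. Ifit2 had 3.88 and 3.44, and Ifit3 11.6 and 10.5, none of them well above background. Ifit3 has a near-identical neighbour, Ifit3b, with 2.78 and 6.35, also not well above background. The Ifit genes were therefore at or near the detection floor in both genotypes, and no fold can be given for Ifit2 and Ifit3.

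The remaining genes are induced by interferon and have varied or less defined roles. Rtp4, a receptor-transporting protein, had a signal of 32.5 in control and 132 in knockout epidermis (1.80 ± 0.26, 3.49-fold), the widest gap among the 23. Xaf1, a pro-apoptotic partner of the inhibitor XIAP, had 49.9 and 119 (1.03 ± 0.23, 2.05-fold). Ifi27l2a, a small membrane protein, had 302 and 670 on its brightest probe (0.93 ± 0.21) and 90.9 and 203 on the other (0.94 ± 0.21). The 2 probes of Ifi27l2a thus gave nearly the same difference. Ifi35 had 413 and 527 (0.13 ± 0.20). Ifi44, with 3.39 and 3.65, and Samd9l, with 9.64 and 14.1, stayed below the background criterion on both arrays.

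**Figure D3:**
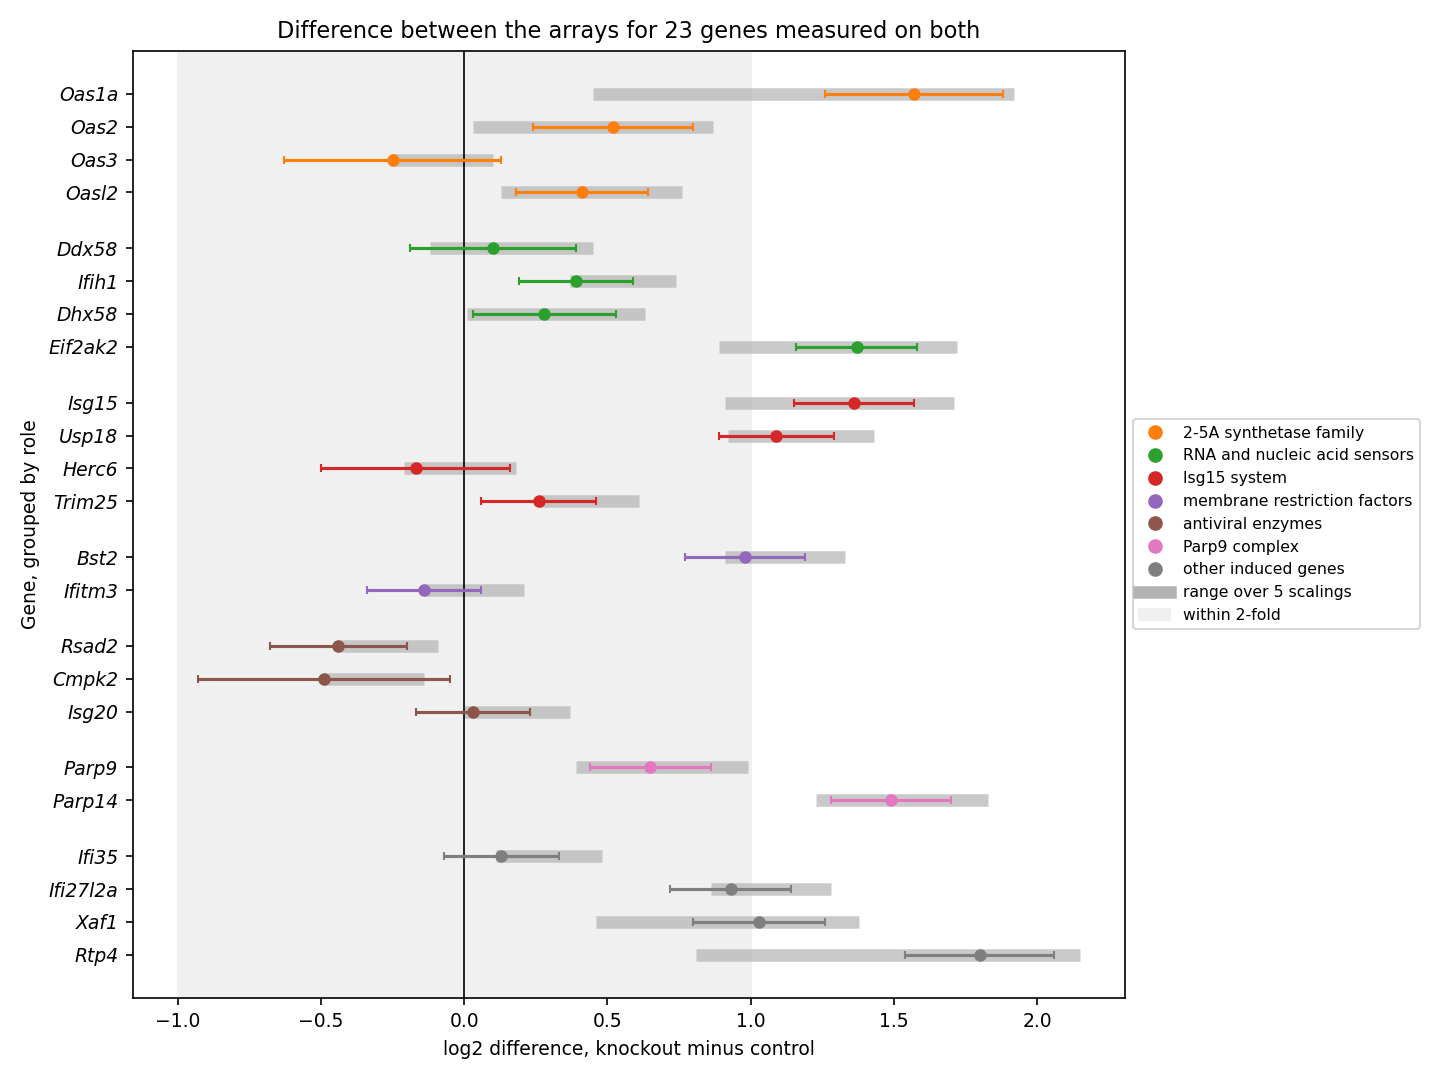
Log2 difference (knockout minus control) of the 23 antiviral genes measured on both arrays, grouped by role. Bars are 1 standard error from the scanner's error model, grey bands the range over 5 scalings, and the shaded area differences within 2-fold. Parp14 is the only gene whose whole band lies beyond 2-fold, and Rtp4, Oas1a and Xaf1 have the widest bands.

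Neighbouring genes had both like and unlike values. Oas2 and Oas3 are adjacent on chromosome 5, at 0.52 ± 0.28 and -0.25 ± 0.38, the latter above 0 under 3 of the 5 scalings, with 6 genes between Oas3 and Oas1a at 1.57. Oasl2 and Oasl1 are adjacent as well. Parp14 and Parp9, with Dtx3l between them, were both above 0, at 1.49 and 0.65. Rsad2 and Cmpk2 were both below 0. The same held for the ISRE core. Of 9 measured holders, 3 were higher by 2-fold or more and the median was 0.39. Of 7 measured genes with a promoter and no core, 1 (Xaf1) was higher by 2-fold or more and the median was 0.13. Measured genes without a matched promoter window are in neither group. Among these are Rtp4, Parp14 and Usp18, which were higher by 2-fold or more. With the core followed by C the medians were 0.98 over 7 holders and 0.03 over 9 others. Of measured members with GAS letters 2 of 6 were that much higher (median 0.56), and of those without 2 of 10 (0.18). For the NF-κB site it was 0 of 4 (-0.06) and 4 of 12 (0.32). Among genes outside the list, 6.63% of 332 with an ISRE core were at least 2-fold higher, against 2.95% of 9598 without one. At least 2-fold lower were 16 of the 332, where the share over all measured genes was 4.39%.

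**Figure D4:**
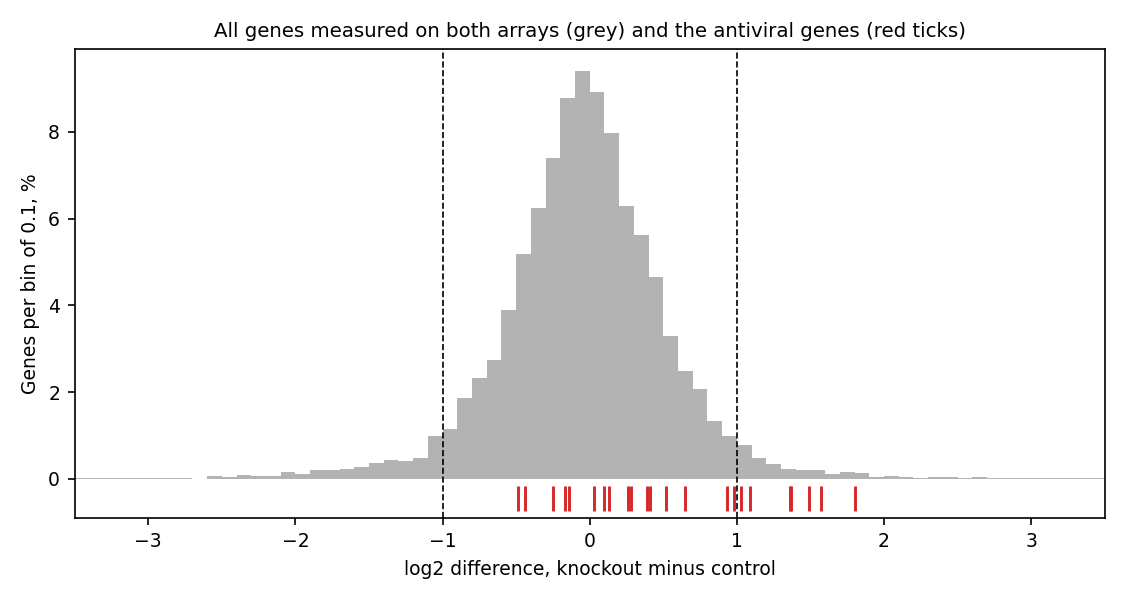
Distribution of log2 differences (knockout minus control) over the 12397 named genes measured on both arrays, in percent per bin of 0.1 (grey), with the 23 antiviral genes as red ticks and dashed lines at 2-fold. Genes further apart than the axis are not drawn. The antiviral genes run from -0.49 to 1.80, with 7 to the right of the upper line and 0 to the left of the lower one.

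Upstream of the antiviral genes, the interferons themselves were mostly dim or lower on the knockout array. Of 19 interferon genes listed, 12 had a probe and 5 were measured on both arrays. Ifna2 had a signal of 180 in control and 49.9 in knockout epidermis (-2.07 ± 0.22), and Ifna5 45.9 and 21.9 (-1.29 ± 0.27, but -0.94 under median scaling and -0.63 under normexp). Of the 5 measured on both arrays, these 2 were at least 2-fold lower and 0 were higher by as much. The rest lay within 2-fold: Ifna9 (-0.28 ± 0.25, and 0.07 under median scaling), Ifna13 (-0.46 ± 0.24) and Ifnz (0.21 ± 0.30). Each was read by 1 probe, and cross-hybridisation between related interferon genes was not tested. Ifnb1, the interferon that most cells make first, had 5.19 and 7.82, not well above background on either array, near a non-uniform spot. Ifnk, the interferon of keratinocytes, had 36.9 and then 18.2, not well above background, 2.36-fold lower as a plain ratio of scaled levels. Ifng, made by T cells and natural killer cells, had 14.3, not well above background, and 29.8, 1.79-fold higher as such a ratio.

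Of the 12 genes for receptors, kinases and ISGF3, all were measured, 2 were at least 2-fold higher and 1 lower. Irf9, the DNA-binding part of ISGF3, had a signal of 403 in control and 943 in knockout epidermis (1.01 ± 0.20), with 0.45 ± 0.27 on its other probe and a value just under 2-fold under cyclic loess (0.99) and normexp (0.94). Stat2, another part of ISGF3, had 168 and 241 (0.30 ± 0.21). The 2 probes of Irf9 thus differed in size and not in sign. The kinase Jak2, which serves the interferon-gamma receptor, had 781 and 312 (-1.54 ± 0.20), and -1.20 ± 0.34 on its other probe. Ifnar1, of the type I receptor, had 330 and 356 (-0.11 ± 0.20, and 0.24 under median scaling). Ifnar2, its partner, had 172 and 137 on the brightest probe (-0.55 ± 0.21) and 0.33 ± 0.28 on the other, so its direction is not settled.

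Among genes that switch interferons on, 14 of 16 were measured on both arrays, with 2 at least 2-fold higher and 1 lower. Irf1, an ISRE-binding factor, had a signal of 618 in control and 6110 in knockout epidermis (3.09 ± 0.20, 8.49-fold), and its other probe gave 3.23 ± 0.30. Irf8 had 31.5 and 81.7 (1.15 ± 0.24, and 0.46 under normexp). Irf7, the factor that ISGF3 induces to amplify interferon production, had 52.1 and 87.8 (0.53 ± 0.22). Irf1 thus stood far above the antiviral genes themselves. Ticam1, the adaptor of Tlr3, had 266 and 139 (-1.16 ± 0.21, but -0.81 under median scaling and -0.83 under normexp). Of 12 negative regulators, all measured, 0 were at least 2-fold apart in either direction on their brightest probes. The largest difference on those probes was that of Socs3, with 5420 and 12400 (0.97 ± 0.20). It was past 2-fold under median scaling, quantile, cyclic loess and normexp. The probes of Nlrx1 differed, with 0.51 ± 0.21 on the brightest. Its other probes gave 2.50 ± 0.31 (19.9 and 131) and 0.02 ± 0.23.

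Genes that respond mainly to interferon-gamma gave larger values than the antiviral list. Of 15 listed, 7 were measured on both arrays, 5 of them higher by 2-fold or more, with a median of 2.14 (1.12 under normexp). Irgm2 had a signal of 86.1 in control and 639 in knockout epidermis (2.67 ± 0.21). Igtp had 203 and 1090 (2.20 ± 0.21), Gbp2 72.5 and 386 (2.19 ± 0.21), Irgm1 32.9 and 169 (2.14 ± 0.23), and the chemokine gene Cxcl9 18.9 and 76.1 (1.79 ± 0.32, and 0.60 under normexp). Iigp1 had 4.34, not well above background, and 171, at least 11.6-fold higher. Irgm2, Igtp, Irgm1, Gbp2 and Iigp1 are GTPases with roles in defence against microbes inside cells, and the spot of Irgm1 lies near a non-uniform one. Of the genes measured on 1 array, 5 were measured on the knockout array alone, among them Iigp1, and 1, Gbp5, on the control array alone. Gbp5 had 20.2 and then 10.8, not well above background, at least 1.94-fold lower. Its relatives Gbp3, Gbp6 and Gbp7 went the other way, at least 1.87-fold, 1.23-fold and 1.35-fold higher. Their knockout signals were dim, at 27.6, 18.2 and 19.9. Ido1, also on that list, had 25.0 and 22.0 (-0.40 ± 0.31). The difference between the lists was not tested, and both were chosen with earlier results of these data known. Of the partners of antiviral proteins, Ppp1r15a, which reverses the translation block set by PKR, was the only one of 6 measured on both arrays to pass 2-fold, with 818 and 3930 (2.04 ± 0.20).

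**Figure D5:**
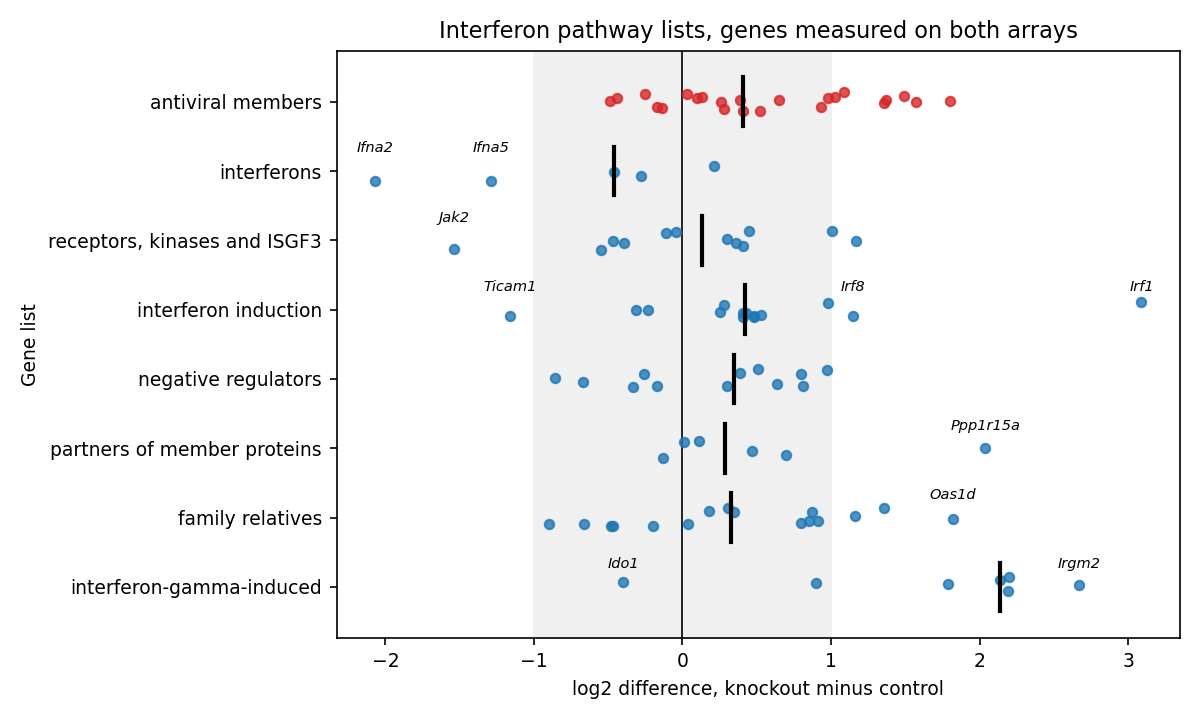
Log2 difference (knockout minus control) of the antiviral genes (red) and of 7 lists of related genes (blue), each point 1 gene measured on both arrays, with black bars at the medians and the shaded area within 2-fold. The interferon-gamma-induced list has its median at 2.14 and the antiviral genes at 0.41, while Irf1 stands at 3.09 and Ifna2 at -2.07.

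Markers of immune cells moved with these genes in part. Of 6 measured T cell markers, 3 were higher by 2-fold or more in knockout epidermis: Cd247 with 82.3 and 221 (1.20 ± 0.22, but -0.32 ± 0.31 on another probe), Itgae with 106 and 260 (1.07 ± 0.21) and Klrd1 with 109 and 265 (1.06 ± 0.21), of which 0 passed under normexp. The summed signal of all 6 before scaling was 2943 in control and 3726 in knockout epidermis, most of it from Thy1 (2110 and 2050). Of the 6 Langerhans cell markers, 1 was at least 2-fold higher, Cd207 with 166 and 608 (1.65 ± 0.21). The sum before scaling was 20355 and 26503, most of it from Mfge8 (12700 and 13400) and Cd74 (4720 and 9300). Cd3e, with 105 and 159 (0.38 ± 0.21), and Itgax, with 123 and 155 (0.11 ± 0.21), differed less. Below 0 were the T cell marker Thy1 (-0.26 ± 0.20, and -1.23 ± 0.24 on its other probe) and the Langerhans cell markers Epcam (-0.38 ± 0.20) and Mfge8 (-0.14 ± 0.20). The part of these cells in the antiviral signals was not tested. Siglech, the defining marker of plasmacytoid dendritic cells, had 2.60 and 2.44, not well above background on either array. The other 4 markers on that list were measured on both arrays, and 0 were at least 2-fold apart. They were Ccr9 (0.17 ± 0.21), Tcf4 (-0.48 ± 0.21), Ly6d (-0.30 ± 0.20) and Il3ra (-0.39 ± 0.22). Of the macrophage markers, Lyz2, Mrc1 and Ccr2 stayed below the background criterion on both arrays, while Adgre1 had 402 and 653 (0.48 ± 0.20) and Csf1r 389 and 654 (0.53 ± 0.20). Markers of melanocytes (3 of 3 measured), skeletal muscle (3 of 3) and red blood cells (4 of 4) were at least 2-fold lower. Under normexp these counts were 2, 2 and 3, and for red blood cells 3 under median scaling, quantile normalization and cyclic loess. Summed signals before scaling were 1727 and 466, 613 and 66.1, and 18354 and 2133. The muscle sum includes Ckm, which was not well above background on the knockout array. The part of these cells in the antiviral signals was not tested either.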

How the data were processed

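Each genotype was measured on 1 one-colour Agilent array. Per the file headers, the authors' scanner files give spot intensity on a linear scale from Feature Extraction 10.7.3.1, background-subtracted within the array, on a design annotated on mm9. From the processed signal, log2 values minus each array's 75th percentile over non-control probes were computed. Outlier spots were dropped, repeated spots averaged, and a gene was read from its brightest probe. Probes were named through RefSeq accessions of assembly GRCm38.p6, used here for names, gene order and promoter windows.

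The authors' deposited log2 table is centred on each probe (largest sum of its 2 columns 1.0e-06, medians 0.14 and -0.14), and its knockout minus control values tracked those of the scanner files across probes (Pearson r 1.00, median offset -0.01). It served as an alternative.

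No test was possible with 1 array per group, and the number of arrays limits the precision. The members and lists were chosen with earlier results of these data known. The genes named are all members, Nfkbiz, the genes of 7 pathway lists at least 2-fold apart or with such a bound, fixed factors of the pathway, and markers from 11 cell type lists. Names outside this rule, chosen after their values were seen, are Oas1f, Ifitm1, Ifitm2, Ifitm6, Parp10, Parp12, Ifit3b, Oas1h, Uba7, Ifng, Ifna9, Ifna13, Ifnz, Gbp5, Ido1, Socs3 and genes with an ISRE core outside the lists. Zc3hav1, Herc4, Nlrx1, Gbp3, Gbp6 and Gbp7 were likewise named outside this rule, after their values were seen. Some genes that the rule names are counted within their lists but not reported by name here.

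The alternatives comprised quantile normalization, cyclic loess, scaling to the median and normexp with an offset of 50 (limma 3.58.1, R 4.3.3), the mean over probes, other filters on dim or non-uniform spots, and folds of 1.5 and 3. Normexp used median spot signals and was fitted without non-uniform spots, both chosen after seeing the data. The code, in Python 3.11.15 with pandas 2.3.3, numpy 2.4.6 and, for figures, matplotlib 3.10.9, was tested on simulated data.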

Additional observations from a re-analysis of the deposited data

How the results depend on the processing

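The count of antiviral genes at least 2-fold higher, 7 of 23, stayed at 7 under quantile normalization, cyclic loess, the mean over probes, the authors' deposited table and without probes near non-uniform spots (22 genes). It was 9 under median scaling, where 8.28% of all genes passed, and 10 at 1.5-fold (10.1% of all genes). It was 10 of 26 with genes above background on at least 1 array (4.21% of all genes) and 10 of 30 with no filter (3.67%), where the 3 added are Ifit1, Oasl1 and Zbp1, read at their dim control signals. Their bounds do not reach 2-fold. It fell to 1 at 3-fold (Rtp4, against 0.855% of all genes) and to 1 under normexp with an offset of 50. Under normexp Isg15 was 0.91, Usp18 0.92, Eif2ak2 0.89, Rtp4 0.81, Xaf1 0.46 and Oas1a 0.45. Normexp changes the background model, the offset and the input signal together, and these were not separated. The count at least 2-fold lower was 0 under each of these settings. The median of 0.41 was 0.76 under median scaling, which shifts each gene by 0.35 and left the distance to the median of all genes at 0.45. The median with 3 more genes at their bound was 0.40 over 26 genes. Of the 23 genes, 16 lay above 0 under all 5 scalings, and Ddx58, Herc6, Ifitm3 and Oas3 changed sign. Among related lists, median scaling gave 7 of 16 family relatives, 3 of 12 negative regulators and 3 of 6 Langerhans cell markers at least 2-fold higher, against 3, 0 and 1 with the 75th percentile. Quantile normalization and cyclic loess gave 4, 1 and 1, and normexp gave 3, 1 and 1. With the core followed by C, 9 of 23 promoters held it in place of 11. Among measured genes with a window, the medians with and without it moved from 0.39 and 0.13 to 0.98 and 0.03. No paired analysis was possible because there is 1 array a group. Signals near the background limit what can be said of the Ifit genes, Oasl1, Zbp1, Ifi44 and Samd9l.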

Other observations

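Outside the antiviral list, 22 genes with an ISRE core in the promoter window were higher by 2-fold or more in knockout epidermis, and these were looked up after their values were seen. Beside genes already named (among them Irgm2, Igtp, Gbp2 and Irgm1), they include Trim21, a cytoplasmic antibody receptor, with signals of 33.2 in control and 121 in knockout epidermis (1.65 ± 0.24). The apolipoprotein L genes Apol9b, with 70.2 and 302 (1.88 ± 0.22), and Apol7c, with 40.3 and 146 (1.64 ± 0.24), were also among them, and these have close copies in the mouse. Jaml, an adhesion molecule of leukocytes including epidermal T cells, had 97.4 and 369 (1.70 ± 0.21). Others are not usually counted among antiviral genes, such as Vegfa with 191 and 726 (1.71 ± 0.21), Sgk1 with 2590 and 9670 (1.68 ± 0.20) and Kcnj16 with 334 and 1140 (1.55 ± 0.20). Of the 16 lower genes with a core, Tmc7, with 1190 and 249 (-2.48 ± 0.20), was the furthest apart, and Ifna2 and Ifna5 were among them.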
